A study of Mus musculus with 6 samples.

Results

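Aminoacyl-tRNA synthetases join each amino acid to its transfer RNA (tRNA), the step that supplies the ribosome with building blocks. The 37 genes described here are 19 that encode cytosolic synthetase subunits, 2 that encode scaffold proteins of the cytosolic multi-synthetase complex, and 16 that encode mitochondrial synthetases. They were taken from the deposited table by gene symbol, 37 of 54532 genes. No measured value entered that rule, but the list was proposed with earlier results of these data known. All 37 passed the filter on low counts and were among the 13900 genes tested, with at least 56 reads per library for the lowest (Ears2) and up to 10273 for the highest (Lars2). The family is not complete: the cytosolic methionine enzyme Mars and the further scaffold Eef1e1, for example, are given with the related genes.

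The data are bulk RNA sequencing of mouse CD4+ T cells that were naive when isolated from spleen lymphocytes of strain C57BL/6. One group received NETs, neutrophil extracellular traps (chromatin carrying granule proteins, cast out by neutrophils), and the other received vehicle, with 3 libraries in each. Both groups were otherwise treated alike for 72 h: CD3/CD28 beads and IL-2 drove activation while antibodies neutralised interferon-gamma and IL-4, so neither group is resting cells. The sources used here give neither the origin or dose of the NETs nor the age and sex of the animals. Since nothing says that replicates are separate animals or cultures, a p-value reflects only how far these samples scatter, and that scatter may be technical.

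The nucleus encodes both sets of enzymes. The cytosolic set serves the translation of nuclear messages, while the mitochondrial set serves the few respiratory chain proteins made inside the organelle, and for most amino acids each set has its own gene. Several cytosolic enzymes sit in one large complex held together by scaffold proteins, and the others act as free enzymes. Shortage of amino acids leaves tRNAs uncharged, which activates the kinase Gcn2 (Eif2ak4) and the transcription factor Atf4, and many cytosolic synthetase genes are known Atf4 targets. Activated T cells raise protein synthesis before they divide.

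Of the sequences around the gene starts, 2 motifs were searched. The C/EBP-ATF response element, to which dimers of Atf4 with C/EBP proteins bind, was searched as TGATGNAA on both strands from 250 bases before to 50 bases after the annotated gene start, in RefSeq promoter sequences of build GRCm38.p6. Such a window was matched for 28 of the 37 genes (none for Cars, Hars, Lars, Nars, Rars, Vars, Wars, Hars2 and Pars2). The letters were present in 5 of 14 cytosolic genes (35.7%) and in 0 of 14 mitochondrial genes, against 4.51% of 27025 genes with a window and 2.73% of the 9913 of these that were tested. The matches lie at the genes for the alanine, glycine, isoleucine, threonine and tyrosine enzymes, and one for each gene is shown because no mitochondrial window holds one. Capitals mark the 8 matched letters, read 5′ to 3′ on the gene's strand. All those shown but the Yars match lie on the opposite strand and so read as the reverse complement.
Aars, 10 bases after the start, chr8:111033840-111033869, + strand: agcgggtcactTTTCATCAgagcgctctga
Gars, 30 bases before the start, chr6:55037960-55037989, + strand: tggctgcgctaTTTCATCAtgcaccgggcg
Iars, 8 bases after the start, chr13:49682126-49682155, + strand: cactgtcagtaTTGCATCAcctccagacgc
Tars, 15 bases before the start, chr15:11399655-11399684, − strand: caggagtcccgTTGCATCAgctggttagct
Yars, 4 bases after the start, chr4:129189895-129189924, + strand: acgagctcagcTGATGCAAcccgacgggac

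The E-box CACGTG, a site of Myc and related factors that shares no letters with the other motif at any of these places, was found in 4 of 14 cytosolic genes (28.6%: Aars, Farsb, Iars and Tars) and in 1 of 14 mitochondrial genes (7.14%: Ears2). It was present in 8.09% of all genes with a window and in 11.7% of those tested. A match describes letters only, and whether any factor binds there was not measured.

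Cytosolic synthetases were the more abundant messages. On the deposited FPKM scale (reads divided by gene length and by library size), the 21 cytosolic and scaffold genes had a median level of 45 in NETs libraries and 40.6 in vehicle libraries. The 16 mitochondrial genes had median levels of 16.8 FPKM with NETs and 16.4 FPKM with vehicle. The highest FPKM belonged to Vars, the valine enzyme, with 274 ± 23.5 FPKM with NETs and 248 ± 11.4 FPKM with vehicle (SD, n = 3 each). Qars, the glutamine enzyme, followed in vehicle cells, with 177 ± 5.89 FPKM with NETs and 174 ± 4.36 FPKM with vehicle. Lars2, the mitochondrial leucine enzyme, had 187 ± 82.1 FPKM with NETs, where its libraries spread widely, and 104 ± 0.73 FPKM with vehicle, rank 2 with NETs and rank 3 with vehicle. Below it in vehicle cells came Kars (99.5 ± 5.48 FPKM) and Sars (98.7 ± 1.95), which did not differ beyond their spread, and then Aimp1 (89.3 ± 6.19), Gars (88.9 ± 17.3) and Tars2 (83.8 ± 4.33), which likewise did not. The lowest FPKM values were mitochondrial: Ears2, the glutamate enzyme, had 1.64 ± 0.696 FPKM with NETs and 1.78 ± 0.289 FPKM with vehicle, and Mars2, the methionine enzyme, had 2.47 ± 0.177 FPKM with NETs and 2.39 ± 0.171 FPKM with vehicle.

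The order of levels depends on the length each gene is divided by. For 4 of the 37 genes (Mars2, Hars, Lars and Nars) the length implied by FPKM and the deposited gene length differ by less than 1%, and the implied length was shorter for the other 33, with a median ratio of 0.348. Hars, the histidine enzyme, was rank 22 of 37 in vehicle cells by FPKM, rank 6 by reads per kilobase of the deposited length and rank 10 by reads per kilobase of its longest annotated transcript. Qars was rank 2 by FPKM, rank 7 by the deposited length and rank 4 by the transcript length. With NETs, Lars2 stood above Vars on the transcript scale, at 96.1 ± 42.3 against 92.0 ± 7.88 (SD, n = 3 each), a difference within the spread of Lars2. The lowest gene on that scale was Wars2 with NETs (2.41) and Nars2 with vehicle (2.13), not Ears2. On the transcript scale, also divided by library size, the class medians were 31.1 with NETs and 28.6 with vehicle for the cytosolic set, and 8.92 with NETs and 8.97 with vehicle for the mitochondrial set.

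Cytosolic and mitochondrial genes for the same amino acid form 16 pairings, counting Eprs, which joins glutamate and proline activity, and the phenylalanine enzyme, which has 2 cytosolic chains, once for each. The cytosolic gene had the higher FPKM in 14 of 16 pairings with NETs and in 12 of 16 with vehicle. Without NETs replicate 2 the FPKM count with NETs was 13. The counts depended on the length: 12 in both groups on the transcript scale, and 14 with NETs and 13 with vehicle by the deposited length. In 11 pairings the cytosolic gene was higher in both groups on all 3 length scales. In FPKM, Eprs stood 33.9 times above Ears2 with NETs and 27.1 times with vehicle. That ratio depended on the length: it was 12.2 and 9.72 on the transcript scale, and 8.3 and 6.63 by the deposited length. Ears2 had only 56 to 137 reads per library. Vars stood 10.4 times above Vars2 with NETs and 9.59 times with vehicle in FPKM, and 10.3 and 9.48 times on the transcript scale. The leucine and threonine pairs ran the other way on all 3 scales: the ratio of Lars to Lars2 was 0.0966 with NETs and 0.134 with vehicle, and that of Tars to Tars2 was 0.486 with NETs and 0.435 with vehicle, in FPKM.

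**Figure D1:**
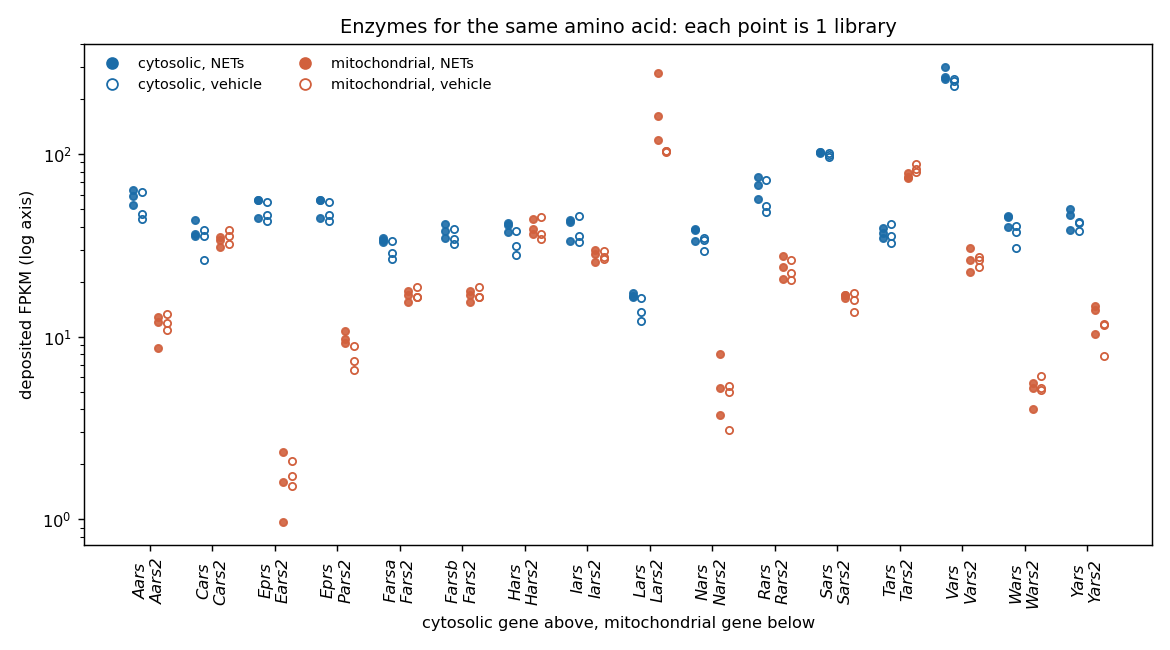
Deposited FPKM on a log axis for the 16 pairings, with cytosolic genes in blue and mitochondrial genes in orange, filled points for NETs and open points for vehicle libraries, 1 point per library. The mitochondrial gene lies above the cytosolic gene for leucine (Lars2) and threonine (Tars2), and the Lars2 points of the NETs libraries spread apart.

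Between groups, no synthetase gene passed the test. With edgeR's quasi-likelihood test and Benjamini-Hochberg adjustment over all genes, 0 of 37 were called at an adjusted p under 0.05, against 0% of all 13900 genes, and the adjusted p-values of the 37 ran between 0.271 and 0.957. Other tools called 130 (DESeq2), 1 (limma-voom) and 2 (limma-trend on FPKM) of all genes, none of them a synthetase. DESeq2 gave no adjusted p for Aimp2, Ears2, Nars2, Pars2 and Wars2. With edgeR, the count of genes whose unadjusted p was under 0.05 was 1776. At that unadjusted level 5 of the 37 had higher values with NETs (13.5%: Hars, Wars, Lars, Lars2 and Pars2), against 6.72% of all genes, and 0 of 37 had lower values, against 6.06% of all genes. The count of 5 rests on single libraries: it was 0 without vehicle replicate 2, 1 (Wars) without vehicle replicate 1, 2 (Hars and Lars2) without NETs replicate 1 and 11 without vehicle replicate 3. Groups that did not overlap were found for 4 of the 37 with NETs higher (10.8%: Lars, Sars, Lars2 and Pars2), against 7.68% of all genes, and for 1 with NETs lower (2.7%: Tars2), against 9.04% of all genes.

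More estimates lay above 0 than below it in both sets. The log2 fold change of NETs over vehicle was above 0 in 20 of 21 cytosolic and scaffold genes (95.2%) and in 10 of 16 mitochondrial genes (62.5%), against 50.2% of all genes. Its median was 0.14 in the cytosolic set (lowest −0.07, highest 0.31), 0.05 in the mitochondrial set (lowest −0.14, highest 0.85) and 0.00 over all genes tested, where the quartiles were −0.16 and 0.16. The class mean of log2 CPM had an SD between libraries of a group of 0.118 in the cytosolic and 0.107 in the mitochondrial set, and the genes share the same 6 libraries, so their number is no measure of certainty. The mitochondrial median was −0.012 without NETs replicate 1, 0.0041 without vehicle replicate 2, 0.0099 without vehicle replicate 1 and 0.017 without NETs replicate 2. The class medians differed by 0.09, and by 0.17 without vehicle replicate 3 and 0.14 without NETs replicate 3. With all libraries, the difference of the class means had an SD between libraries of a group of 0.0631. In bulk samples a change in the share of cells of a type and a change in RNA per cell cannot be told apart.

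**Figure D2:**
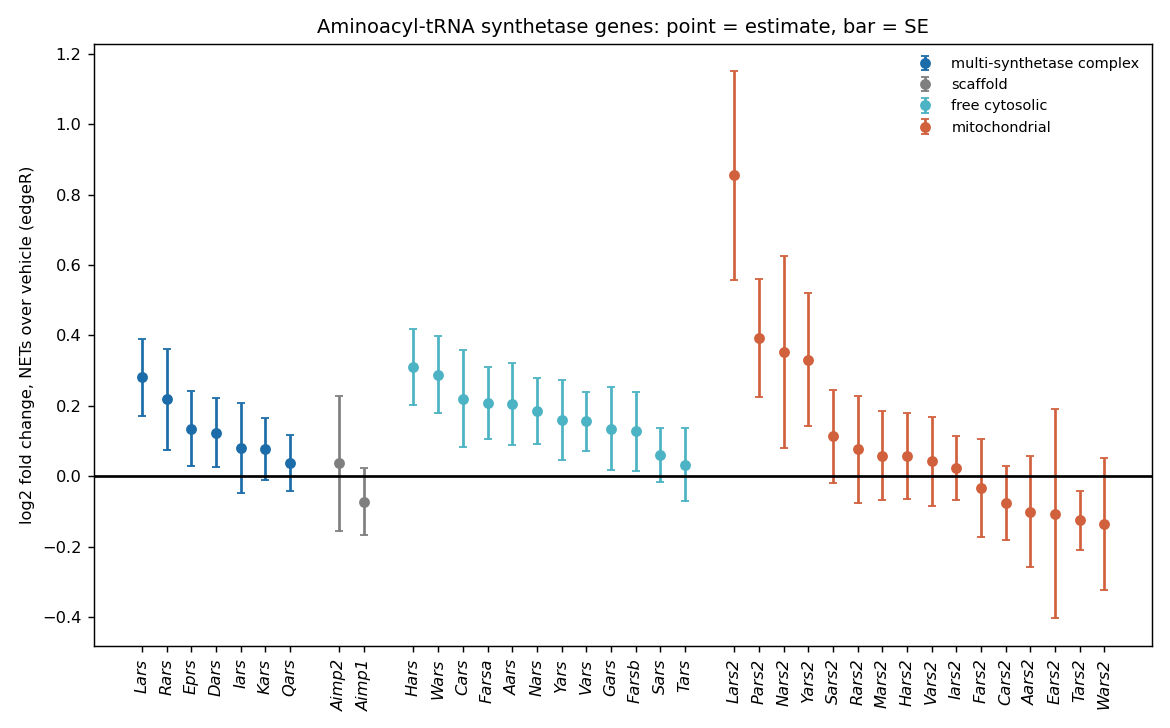
Log2 fold change of NETs over vehicle from edgeR for each of the 37 genes, grouped by role, with the standard error as bar. Free cytosolic enzymes all lie above 0, between 0.03 and 0.31, while mitochondrial genes lie on both sides of 0 and Lars2 reaches 0.85.

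Free cytosolic enzymes, 12 genes, had a median log2 fold change of 0.17 and all 12 estimates were above 0. Hars (chr18:36766530-36783205, ENSMUSG00000001380) had 82.9, 81.0 and 74.7 CPM (read counts scaled to the library's total) in NETs libraries, against 62.5, 56.1 and 75.5 CPM in vehicle libraries. NETs replicate 3 lay just under vehicle replicate 3, so the groups overlap. The difference was 0.31 ± 0.11 in log2 (SE), 1.24-fold, with an unadjusted p of 0.0121 and an adjusted p of 0.271 by edgeR, the smallest among the 37. Wars, the tryptophan enzyme, known as a target of interferon-gamma (chr12:108860030-108894174, ENSMUSG00000021266), had 82.2, 71.6 and 81.2 CPM with NETs, against 66.7, 54.7 and 72.7 CPM with vehicle. Again vehicle replicate 3 reached into the NETs range, and the log2 difference was 0.29 ± 0.11 (SE), with an adjusted p of 0.299 by edgeR. Part of the reads of each can belong to a neighbour, since strand use is not known: Hars shares 198 bases with Hars2 and Wars shares 544 bases with Wdr25, on opposite strands.

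Sars, the serine enzyme, had 184, 181 and 183 CPM with NETs, against 173, 180 and 176 CPM with vehicle. These groups did not overlap but lay close, with a log2 difference of 0.06 and an adjusted p of 0.774 by edgeR. Aars, the alanine enzyme, had 134, 124 and 111 CPM with NETs, against 98.8, 93.4 and 131 CPM with vehicle. Gars, which supplies glycyl-tRNA to both compartments from a single gene, had 136, 133 and 114 CPM with NETs, against 105, 104 and 144 CPM with vehicle. In both, vehicle replicate 3 lay within or above the range of the NETs libraries, and the log2 differences were 0.21 ± 0.12 for Aars and 0.14 ± 0.12 for Gars (SE). Vars had 418, 358 and 366 CPM with NETs, against 359, 328 and 346 CPM with vehicle, a log2 difference of 0.16 with an adjusted p of 0.453 by edgeR. The estimates of Cars, Farsa, Farsb, Nars, Tars and Yars ran between 0.03 (Tars) and 0.22 (Cars).

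Of the multi-synthetase complex, the 7 enzymes had a median log2 fold change of 0.12 and all 7 estimates were above 0, while the 2 scaffolds lay at −0.07 (Aimp1) and 0.04 (Aimp2). Lars, the leucine enzyme, also described as a leucine sensor upstream of mTORC1 (chr18:42202350-42262122, ENSMUSG00000024493), had 66.9, 64.9 and 64.1 CPM with NETs, against 52.6, 47.0 and 63.0 CPM with vehicle. All NETs libraries lay above all vehicle libraries, with vehicle replicate 3 close below. The log2 difference was 0.28 ± 0.11 (SE), 1.22-fold, with an adjusted p of 0.305 by edgeR. Rars, the arginine enzyme, had 65.2, 71.4 and 54.2 CPM with NETs, against 49.7, 46.4 and 69.4 CPM with vehicle, with a log2 difference of 0.22 and overlapping groups. Eprs had 164, 163 and 131 CPM with NETs, against 135, 125 and 160 CPM with vehicle, which also overlap. Qars was nearly level, with 196, 184 and 188 CPM with NETs, against 182, 191 and 185 CPM with vehicle, and a log2 difference of 0.04 ± 0.08 (SE). Kars, which like Gars serves both compartments, had a log2 difference of 0.08, Iars 0.08 and Dars 0.12.

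The scaffolds lay near 0. Aimp1, also known as the precursor of a secreted cytokine, had 76.5, 89.4 and 85.3 CPM with NETs, against 81.6, 92.3 and 92.3 CPM with vehicle. Aimp2 had 12.4, 16.4 and 12.8 CPM with NETs, against 11.6, 12.1 and 17.3 CPM with vehicle. Both pairs of groups overlap, and Aimp2 shares 1548 bases with Eif2ak1 on the opposite strand, which holds more reads (6609 against 1419 over the 6 libraries).

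**Figure D3:**
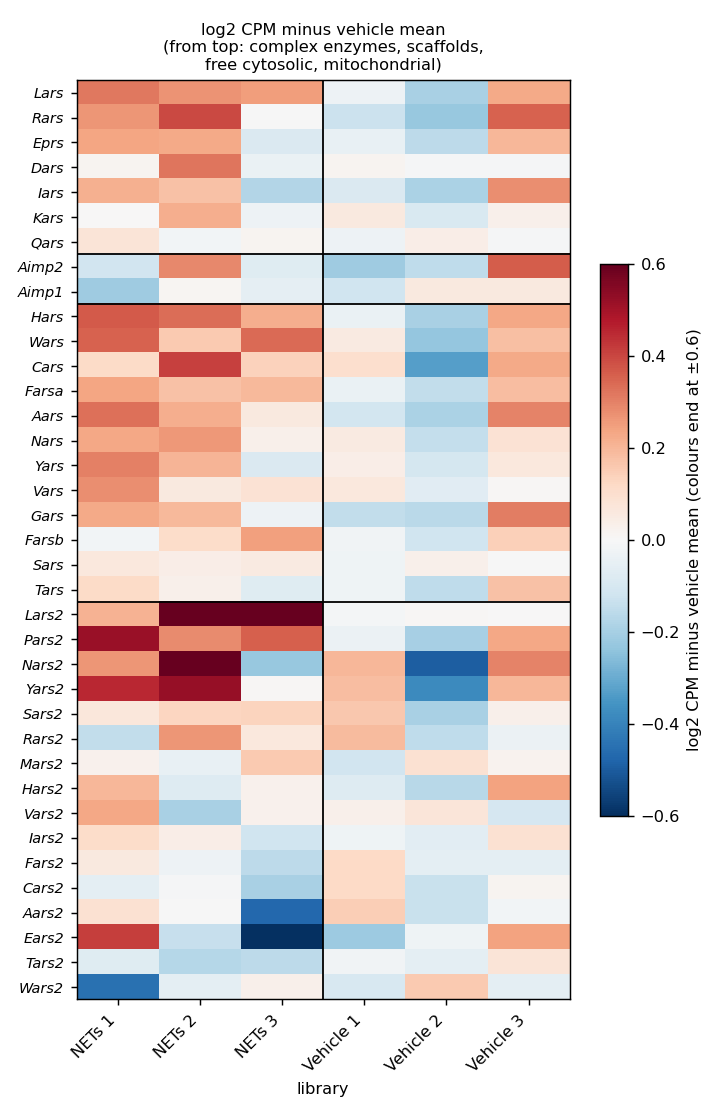
Log2 CPM minus the vehicle mean for each of the 37 genes (rows, by role) in each library (columns, NETs left of vehicle), with red for higher and blue for lower and colours ending at ±0.6. Vehicle replicate 3 is red and vehicle replicate 2 blue in most cytosolic rows. Vehicle replicate 2 is also the lowest vehicle library in 11 of 16 mitochondrial rows, whose colours are otherwise more mixed.

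The libraries within each group differed in the cytosolic set by as much as the groups did. The mean over the 21 genes of log2 CPM minus the vehicle mean was 0.16, 0.19 and 0.05 in NETs libraries, against −0.03, −0.13 and 0.16 in vehicle libraries. Vehicle replicate 3 thus stood level with NETs replicate 1 and above NETs replicate 3. It held the highest vehicle value in 16 of 21 cytosolic and scaffold genes (76.2%) and in 7 of 16 mitochondrial genes (43.8%), against 36.9% of all genes. Vehicle replicate 2 held the lowest vehicle value in 17 of 21 (81%) and in 11 of 16 (68.8%), against 39.3% of all genes. Without vehicle replicate 3, edgeR called 405 of 14391 genes tested (218 with higher and 187 with lower values) and 2 of the 37 synthetase genes. These 2 were Hars (log2 difference 0.43, adjusted p = 0.0354) and Lars (0.40, adjusted p = 0.0499). The setting leaves out the vehicle library that stood highest in these same genes, and the cytosolic median was 0.23. That median was 0.08 without vehicle replicate 2 and 0.20 without NETs replicate 3. For the 16 mitochondrial genes the library means were 0.12, 0.18 and −0.05 with NETs, against 0.04, −0.11 and 0.07 with vehicle.

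The 5 genes with the C/EBP-ATF letters (Aars, Gars, Iars, Tars and Yars) had the same order of vehicle libraries, with replicate 2 lowest and replicate 3 highest, while NETs replicates 1 and 2 changed places. Their mean was 0.24, 0.17 and −0.06 with NETs, against −0.07, −0.16 and 0.22 with vehicle, with a median log2 fold change of 0.14. The 9 cytosolic genes whose window lacked the letters had means of 0.03, 0.15 and 0.03 with NETs, against −0.05, −0.06 and 0.11 with vehicle, and a median of 0.08. The groups overlap in both. The 9 include the scaffolds Aimp1 (−0.07) and Aimp2 (0.04). Cytosolic genes without a window (Cars, Hars, Lars, Nars, Rars, Vars and Wars) are in neither set, and their estimates ran between 0.16 (Vars) and 0.31 (Hars). The 2 medians therefore do not describe the whole cytosolic set.

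**Figure D4:**
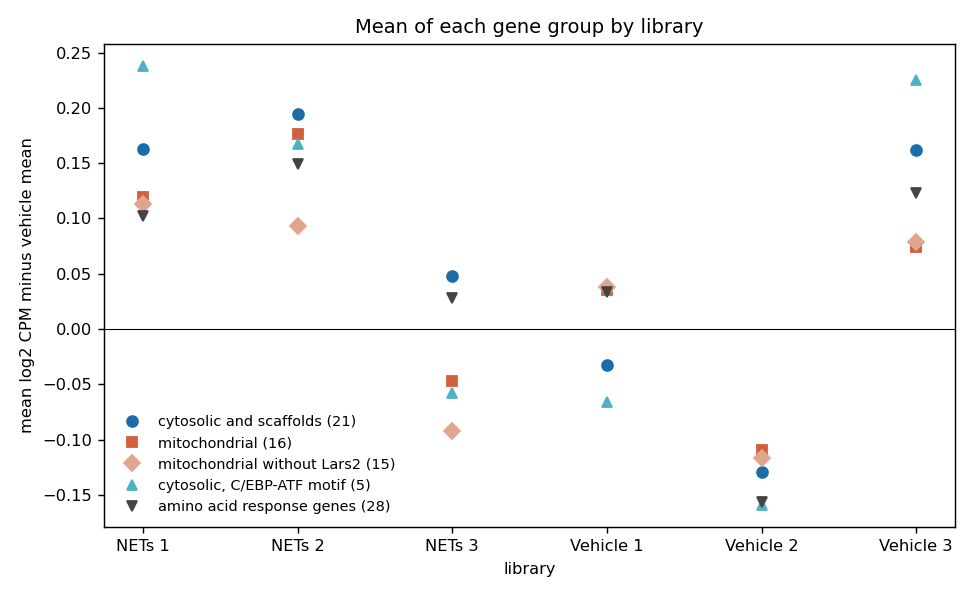
Mean over each gene group of log2 CPM minus the vehicle mean, by library, with NETs libraries left of vehicle libraries. For the amino acid response genes only, a small constant was added to CPM before the log. Vehicle replicate 3 is at 0.16 for the cytosolic set and 0.22 for the genes with the C/EBP-ATF letters, inside the range of the NETs libraries.

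Mitochondrial synthetases were mixed, apart from Lars2. Pars2, the proline enzyme (chr4:106651069-106655282, ENSMUSG00000043572), had 17.3, 14.7 and 15.5 CPM with NETs, against 11.8, 10.5 and 14.2 CPM with vehicle. The groups did not overlap, and the log2 difference was 0.39 ± 0.17 (SE), 1.31-fold, with an unadjusted p of 0.0337 and an adjusted p of 0.353 by edgeR. Tars2, the threonine enzyme (chr3:95739976-95760206, ENSMUSG00000028107), was the 1 gene with all NETs libraries below all vehicle libraries, with 108, 101 and 102 CPM with NETs, against 112, 109 and 120 CPM with vehicle. Its log2 difference was −0.13 ± 0.08 (SE), with an adjusted p of 0.543 by edgeR. Yars2 (tyrosine) and Nars2 (asparagine) had log2 differences of 0.33 and 0.35, both with overlapping groups. Nars2 had 9.43, 14.5 and 6.71 CPM with NETs, against 9.01, 5.56 and 9.64 CPM with vehicle, and its estimate was 0.02 without NETs replicate 2. Ears2, at −0.11, spread widely as well, with 7.98, 5.44 and 3.27 CPM with NETs, against 5.15, 5.88 and 7.09 CPM with vehicle. The other 10 estimates ran between −0.14 (Wars2) and 0.11 (Sars2).

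Within pairings, the ratio of cytosolic to mitochondrial FPKM was higher with NETs in 11 of 16 and lower in 5, with a median log2 change of 0.16. The groups overlapped in 14, with NETs wholly above in 1 and wholly below in 1. Of all single genes tested, 7.68% had NETs wholly above and 9.04% wholly below. No such share was counted for ratios of other genes, so the pairings without overlap are described only. The ratio of Hars to Hars2 was 0.948, 1.12 and 0.963 with NETs, against 0.865, 0.828 and 0.839 with vehicle, so all NETs ratios lay above. The ratio of Eprs to Pars2 was 5.20, 6.06 and 4.61 with NETs, against 6.26, 6.51 and 6.19 with vehicle, so all NETs ratios lay below.

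Lars2 (chr9:123366927-123462666, ENSMUSG00000035202) had the largest estimate of the 37. It had 241, 558 and 323 CPM in NETs libraries, against 207, 210 and 209 CPM in vehicle libraries. The vehicle libraries lay within a narrow range, while the NETs libraries spread from just above it to far above it. The log2 difference was 0.85 ± 0.30 (SE), 1.81-fold, with an unadjusted p of 0.0272 and an adjusted p of 0.329 by edgeR, and it was 0.46 without NETs replicate 2. Other genes chosen after their values were seen had the same order of NETs libraries. CT010467.1, annotated as a ribosomal RNA gene (chr17:39846353-39848827), had 1199, 2062 and 1251 CPM with NETs, against 938, 956 and 868 CPM with vehicle. Gm23935, a gene of 57 bases annotated as a miRNA on chromosome 16, had 501, 1026 and 629 CPM with NETs, against 329, 331 and 332 CPM with vehicle.

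Relative to the vehicle mean, Lars2 stood at 1.16, 2.68 and 1.55 in NETs replicates 1, 2 and 3, CT010467.1 at 1.30, 2.24 and 1.36, and Gm23935 at 1.52, 3.10 and 1.90. The mitochondrial ribosomal RNA mt-Rnr2 stood at 0.901, 1.14 and 0.98, and mt-Rnr1 at 0.694, 1.02 and 0.83. Both had the same order of NETs libraries too, so that order is not particular to Lars2, CT010467.1 and Gm23935. The 9 annotated Lars2 transcripts share 0 runs of 21 bases with the annotated transcripts of CT010467.1 or Gm23935, on either strand. No other sequence of ribosomal RNA or of the Lars2 gene was compared, so this count cannot say which RNA the Lars2 reads came from. The part of ribosomal RNA content in the Lars2 values was not tested.

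**Figure D5:**
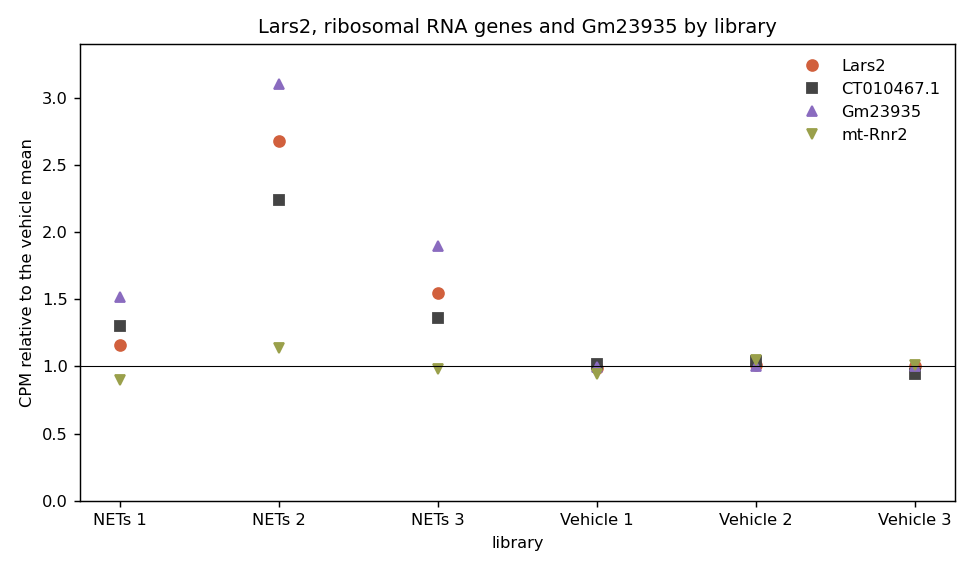
CPM relative to the vehicle mean, by library, for Lars2 and the ribosomal RNA and small RNA genes beside it, with NETs libraries left of vehicle libraries and the line at 1 marking the vehicle mean. Lars2, CT010467.1 and Gm23935 are highest in NETs replicate 2, at 2.68, 2.24 and 3.10.

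Genes around tRNA charging were read from the same fit, and 0 in each list passed the adjusted threshold. Counts at an unadjusted p under 0.05 in these lists stand against 6.72% of all genes with higher and 6.06% with lower values, and are no result about a list where they are near those shares. Of the other charging enzymes, complex members and related genes, 12 were tested, 11 estimates were above 0, and the median log2 fold change was 0.24. Not all of these charge tRNAs, among them Yrdc and Dtd1, which had the smallest p, so the median is not one of synthetases. Yrdc, which makes the threonylcarbamoyl modification of tRNAs, had 22.0, 16.7 and 13.9 CPM with NETs, against 9.17, 11.9 and 11.5 CPM with vehicle, a log2 difference of 0.70 with an adjusted p of 0.223 by edgeR. Dtd1, which removes wrongly charged D-amino acids, had 18.6, 19.1 and 17.6 CPM with NETs, against 13.6, 11.8 and 14.3 CPM with vehicle, a log2 difference of 0.49 with an adjusted p of 0.227 by edgeR. In both genes the NETs libraries lay above the vehicle libraries. Qrsl1 (0.29) and Eef1e1 (0.25) completed the 4 with the smallest p, and Mars had a log2 difference of 0.25.

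The 25 genes of tRNA processing and export had a median of 0.08, with 15 estimates above 0 and 1 gene with an unadjusted p under 0.05 and higher values, the tRNA export receptor Xpot (log2 difference 0.22). Pop5 (0.28), Tsen34 (0.23) and Elac2 (0.22) followed it. The 28 amino acid response genes had a median of 0.11, with 19 above 0, 3 at an unadjusted p under 0.05 with higher values and 0 with lower values. These were Ddit4, an inhibitor of mTORC1 (0.34), Phgdh, the first enzyme of serine synthesis (0.41), and Slc7a5, a leucine transporter (0.39), followed by Aldh18a1 (0.20). Atf4 itself had 105, 127 and 100 CPM with NETs, against 132, 139 and 116 CPM with vehicle, a log2 difference of −0.21 with an adjusted p of 0.415 by edgeR. The mean of this list was 0.10, 0.15 and 0.03 with NETs, against 0.03, −0.16 and 0.12 with vehicle. Vehicle replicate 2 was low and vehicle replicate 3 high, as in the cytosolic set. Unlike there, a small constant was added to CPM before the log, so the sizes are not on the same scale.

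The 14 genes of uncharged tRNA sensing and the integrated stress response had a median of 0.16, with 10 above 0. Eif2b5, a subunit of the exchange factor eIF2B, had higher values at an unadjusted p under 0.05 (log2 difference 0.26), Ppp1r15a, which directs dephosphorylation of eIF2α, had lower ones (−0.40), and Eif2b1 (0.29) and Eif2ak2 (0.20) followed. The 12 mitochondrial translation factors had a median of 0.004, with 7 above 0, and Tsfm, an elongation factor, was at an unadjusted p under 0.05 with 0.39, followed by Mrpl58 (0.26), Tufm (0.20) and Gfm2 (−0.16).

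Over the whole series, libraries held 15657622 to 18655997 reads in genes. Summed T cell markers (6 genes, 2 of 6 tested above 0) ran between 2899 and 3196 CPM with NETs and between 2865 and 3332 CPM with vehicle. The summed neutrophil markers (8 genes, of which 2 passed the filter, both with estimates above 0) ran between 3.9 and 4.95 CPM with NETs and between 1.55 and 2.75 CPM with vehicle, without overlap, with no read of Ly6g in any library and 54.7% of the sum from Mpo. Macrophage and dendritic markers (6 genes, 4 of 4 tested above 0) summed to 37.9 to 49.0 CPM with NETs and 27.5 to 39.3 CPM with vehicle, with 77.6% from Lyz2. CD8 T cell markers (2 genes, 0 of 2 tested above 0) summed to 13.0 to 19.5 CPM with NETs and 18.4 to 20.8 CPM with vehicle. B cell markers (4 genes, 1 of 4 tested above 0) summed to 11.8 to 18.1 CPM with NETs and 14.4 to 16.6 CPM with vehicle. NK cell markers (3 genes, no read of Klre1) summed to at most 0.272 CPM, and erythroid and platelet markers (4 genes) to at most 2.97 CPM, both maxima in NETs libraries. The part of other cells in the synthetase values was not tested.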

How the data were processed

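Whole-number read counts per Ensembl gene, not normalized, were deposited by the authors for 54532 genes in 6 libraries, and a second deposited count table was identical. The authors also deposited FPKM values and a gene length for each gene. The submitters' processing notes name STAR, DESeq2 and mm9 without versions. The counting program, annotation and strand use are not stated in the sources at hand. Of 54409 genes shared with the GRCm38 annotation, 53499 (98.3%) have its coordinates (34 of the 37 synthetase genes), so coordinates are given as GRCm38.

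Counts were tested with edgeR 4.0.16 (filterByExpr, TMM, robust quasi-likelihood fit, group as the only term, two-sided) in R 4.3.3, with Benjamini-Hochberg adjustment over 13900 genes and a threshold of 0.05. Reads outside these genes were 0.135%, and edgeR's common coefficient of variation was 0.134. CPM uses library totals of 15657622 to 18655997. The precision at this depth is the standard error given, with a median of 0.15 in log2 over all genes. Alternatives used DESeq2 1.42.0, limma 3.58.1 and log2(FPKM + 0.1) or log2(FPKM + 1). The edgeR test was tested on simulated data.

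The gene lists, including those of related genes, and the tests were chosen with earlier results of these data known. Every synthetase gene was named or counted, and of each related list the 4 genes with the smallest p, besides Mars and Atf4, which were added after their values were seen. Lists of related genes and cell type markers are described by counts and medians only. Protein sequences, with the planned comparison of signature motifs and identity, were not used here. Of other per-sample columns, 0 were left unused. A few items are not reported here. Promoter sequences are from RefSeq, build GRCm38.p6.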

Additional observations from a re-analysis of the deposited data

How the results depend on the processing

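Genes called over all genes were 0 with RLE scaling, no scaling, a mean CPM of at least 5 and a replicate block, 130 with DESeq2, 1 with limma-voom, 2 with limma-trend on log2(FPKM + 0.1), 2 on log2(FPKM + 1), and 322 with no filter on low counts. Leaving out 1 library gave 0 to 405, with 0 to 2 synthetase genes called. Both of the higher values came without vehicle replicate 3, where 14391 genes were tested. The cytosolic median ran between 0.08 and 0.23 over all alternatives. The mitochondrial median ran between −0.012 (without NETs replicate 1) and 0.069 (without NETs replicate 3), and the class difference between 0.079 and 0.17, when 1 library was left out. Members whose log2 fold change crossed 0 when 1 library was left out were Iars (−0.0046 to 0.23), Tars (−0.033 to 0.12), Aimp2 (−0.095 to 0.24), Aars2 (−0.21 to 0.044), Ears2 (−0.46 to 0.16), Fars2 (−0.084 to 0.016), Hars2 (−0.021 to 0.19), Iars2 (−0.025 to 0.080), Mars2 (−0.0092 to 0.11), Rars2 (−0.0255 to 0.18) and Vars2 (−0.069 to 0.15). The cause was not tested. Over single genes and alternatives, 532 values kept direction and side of the threshold, 21 changed sign and 2 passed it. The 532 include Aimp2, Ears2, Nars2, Pars2 and Wars2 with DESeq2, which kept direction but were given no adjusted p. Same-numbered libraries correlated at −0.0254, −0.0596 and −0.175 in their deviations, and differently numbered ones between −0.179 and 0.223. With deviations taken within groups of 3, these values cannot show whether the numbers mark pairs. The replicate block called 0 genes and changed no synthetase call, with a cytosolic median of 0.15 and a mitochondrial median of 0.05. Of 3 alternatives added after seeing the data, the transcript length scale is in the levels above; without Lars2 the mitochondrial median was 0.04, and without genes that overlap another coding gene with reads the class medians were 0.14 and 0.08. With 3 libraries a group, differences near the median standard error of 0.15 could not be told from the spread. Larger ones also failed the adjusted threshold with all libraries, among them Hars at 0.31 and Lars2 at 0.85.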
